A study of Mus musculus with 73 samples.

Results

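The arginine and polyamine metabolism genes described here are 10 of the 25220 gene rows measured by RNA-seq in early mouse embryos: Ass1, Gm5424, Asl, Arg2, Odc1, Slc7a1, Oat, Sat1, Srm and Sms. They were chosen by name around Ass1, which was picked because its level was much higher in p150DN than in EGFP 8-cell embryos in these same libraries. The values of all members in that comparison are therefore given as a description, without a test. Ass1 and its near copy Gm5424 have no test in any comparison. All 10 rows passed the filter on low values in each comparison.

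Of the series' 73 samples, 8 RNA-seq libraries were used, in 3 groups, all from embryos of a hybrid C57BL/6 / C3H background grown in KSOM, a culture medium for mouse embryos. There were 3 libraries of p150DN 8-cell embryos, 2 libraries of EGFP blastocysts and 3 libraries of EGFP 8-cell embryos. Chaf1a encodes p150, the largest part of the histone chaperone CAF-1, which loads histones H3 and H4 onto freshly copied DNA. The name p150DN denotes p150 made dominant-negative, and embryos with EGFP are its control. How p150DN or EGFP was introduced, how many embryos made up a library and whether replicates came from separate cultures are not stated in the sources used here, so p-values reflect only how much these libraries vary, which may be technical variation.

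Arginine is made from citrulline and aspartate by argininosuccinate synthase (Ass1) and argininosuccinate lyase (Asl), or enters cells through carriers such as Slc7a1. Arginases cleave it to ornithine, which ornithine aminotransferase (Oat) sends towards glutamate and proline and ornithine decarboxylase (Odc1) turns into the polyamine putrescine. Spermidine synthase (Srm) and spermine synthase (Sms) build the larger polyamines, and spermidine/spermine acetyltransferase (Sat1) marks them for breakdown or export. Polyamines bind nucleic acids and are needed by dividing cells, and mouse embryos that lack Odc1 die early in development.

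The libraries held 16578221 to 22488477 counted fragments. At 1 FPKM (fragments per 1 kb of gene length at an equal library total), a 1 kb gene had 16.6 to 22.5 of them. Chaf1a was at 165, 254 and 238 FPKM in p150DN libraries, against 27.7, 30.2 and 28.8 FPKM in EGFP 8-cell libraries. A gene-level value does not separate the embryo's own transcripts from an introduced sequence. Genes above 0 FPKM numbered 18412, 20465 and 21282 in p150DN replicates 1, 2 and 3, against 17310 to 18402 in EGFP 8-cell libraries. All 8 listed markers of the trophectoderm, the blastocyst's outer layer, were in the file, and their summed level was 432 to 637 FPKM in p150DN 8-cell libraries, 1414 to 1482 in blastocyst libraries and 104 to 122 in EGFP 8-cell libraries. The sum of 6 maternal oocyte transcripts was 30.3 to 69.8 FPKM in p150DN 8-cell libraries, 8.66 to 9.34 in blastocyst libraries and 69.2 to 100 in EGFP 8-cell libraries. The sum of 6 inner cell mass markers was 518 to 736, 878 to 926 and 359 to 515 FPKM in the same order of groups. Summed markers of cumulus cells reached at most 1.17 FPKM and those of fibroblasts at most 2.19 FPKM. Those of blood cells summed to 6.07 to 7.89 FPKM in p150DN, 3.44 to 3.82 in blastocyst and 2.39 to 4.39 in EGFP 8-cell libraries. In each group 1 of these 6 markers averaged at least 1 FPKM, and the globin gene Hbb-bs was at 0 in every library.

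Promoters are shown for the gene of the set with the largest ratio between groups (Ass1), for the arginine carrier that was higher in the same groups (Slc7a1, the start site farther upstream of 2) and for the most highly expressed member (Odc1). Each is 300 bases, 250 before and 50 after the start of a RefSeq transcript, from RefSeq on GRCm38.p6, the assembly of mm10. RefSeq's table held promoters for 6 of the 10 members. Ass1 lies at chr2:31470020-31470319 on the + strand, Slc7a1 at chr5:148399855-148400154 on the - strand and Odc1 at chr12:17544623-17544922 on the + strand. Capitals mark the GC box, GGGCGG, on either strand, and the E-box, which is CACGTG.
Ass1: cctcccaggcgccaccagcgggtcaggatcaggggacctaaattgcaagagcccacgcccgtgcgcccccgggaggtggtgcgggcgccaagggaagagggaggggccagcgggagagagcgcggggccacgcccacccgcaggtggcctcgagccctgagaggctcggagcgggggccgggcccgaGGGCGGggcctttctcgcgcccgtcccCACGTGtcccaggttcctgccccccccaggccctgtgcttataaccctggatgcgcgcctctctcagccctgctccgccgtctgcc
Slc7a1: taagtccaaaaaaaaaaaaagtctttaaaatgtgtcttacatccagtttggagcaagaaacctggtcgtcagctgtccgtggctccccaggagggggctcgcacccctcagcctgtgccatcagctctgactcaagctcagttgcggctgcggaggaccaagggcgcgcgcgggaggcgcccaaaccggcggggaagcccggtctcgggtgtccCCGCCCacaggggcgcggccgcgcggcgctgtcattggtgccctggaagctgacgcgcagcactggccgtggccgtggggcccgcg
Odc1: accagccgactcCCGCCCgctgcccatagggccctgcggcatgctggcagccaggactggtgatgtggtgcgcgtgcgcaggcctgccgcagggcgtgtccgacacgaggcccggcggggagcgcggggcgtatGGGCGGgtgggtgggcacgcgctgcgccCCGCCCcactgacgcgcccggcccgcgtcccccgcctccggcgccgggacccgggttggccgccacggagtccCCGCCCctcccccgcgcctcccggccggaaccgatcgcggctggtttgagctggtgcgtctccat
Besides the GC box and the E-box, the TATA box with the letters TATAAA and the core of a C/EBP-ATF element (TGATGNAA) were searched on both strands, and no matches of different motifs overlapped in these 3 windows. Ass1 held GGGCGG at base -63 and CACGTG at base -36 from its start. Slc7a1 held 1 GC box at -36, and Odc1 held 4, at -238, -116, -88 and -15. TATAAA and TGATGNAA were not among the letters of these 3 windows. Of 32851 RefSeq promoters of the same length, 35.7% held GGGCGG, 7.15% held CACGTG, 13.6% held TATAAA and 3.97% held TGATGNAA. These matches are a description of the letters, not of binding.

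Ass1 had the largest ratio of the set between its highest and lowest libraries. It was at 61.6, 61.5 and 61.1 FPKM in the p150DN 8-cell libraries, 151 and 157 FPKM in the blastocyst libraries and just 1.83, 2.36 and 3.61 FPKM in those of EGFP 8-cell embryos. The 3 p150DN libraries lay close together, and the 3 groups did not overlap. At the 8-cell stage p150DN embryos averaged 61.4 ± 0.294 FPKM, against 2.6 ± 0.918 FPKM for EGFP (SD, n = 3 each), a 23.6-fold difference. The log2 fold change was 4.15 ± 0.19 (SE). All log2 fold changes here are of FPKM + 1, so those of low genes are understated. Blastocysts held 154 ± 4.16 FPKM (SD, n = 2), 59.0 times the EGFP 8-cell mean. p150DN embryos thus had 0.400 times the blastocyst level. The counted fragments behind these values were 1651 to 2047 in p150DN, 4758 and 5742 in blastocyst and 62 to 114 in EGFP 8-cell libraries. The summed trophectoderm markers given above were also highest in blastocysts, next in p150DN and lowest in EGFP 8-cell embryos, and their part in the level of Ass1 was not tested. Fewer cells of a type and less RNA per cell cannot be told apart in these bulk libraries.

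Gm5424 gave no second measurement. Its FPKM was 1.05 times that of Ass1 in each library. With the lengths recovered from these same values (1631 bases for Ass1 and 1552 for Gm5424), its fragments equalled those of Ass1 in 8 of 8 libraries. RefSeq lists Gm5424 as a transcribed pseudogene on chromosome 10 (62071022 to 62072571), while Ass1 lies on chromosome 2 (31470270 to 31520670). Of 14528 genes with at least 100 fragments in all, 53 shared their fragments in every library with another gene in this way. The set therefore holds 9 measurements, and which of these loci the fragments came from cannot be told from the values.

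**Figure D1:**
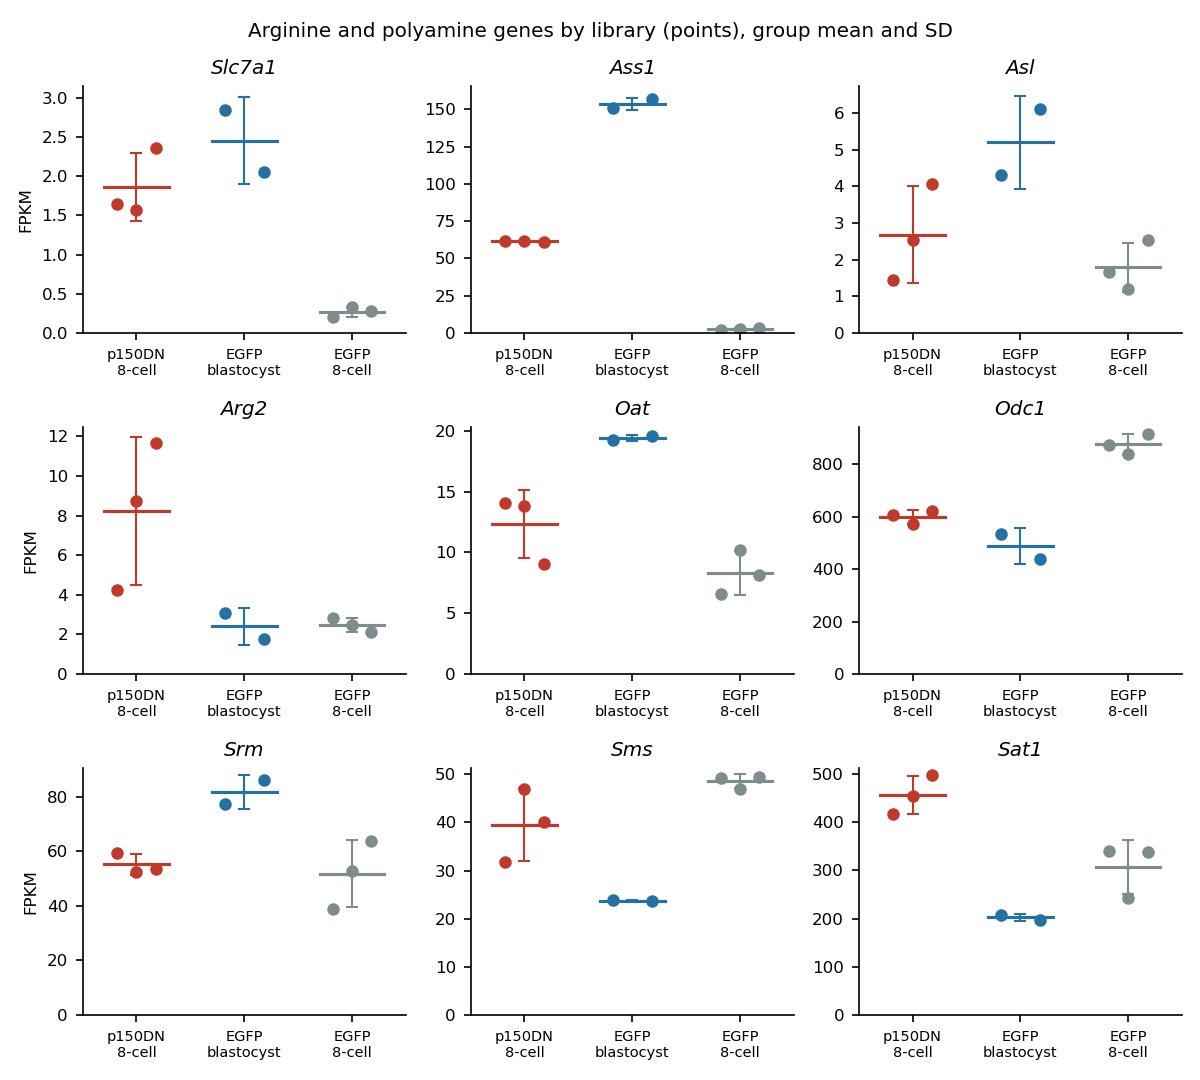
FPKM of the 9 distinct measurements in each library (points, left to right p150DN 8-cell, EGFP blastocyst and EGFP 8-cell), with the group mean (bar) and SD (whiskers; n = 3, 2 and 3). Ass1 and Slc7a1 are far lower in EGFP 8-cell embryos than in both other groups, Odc1 is highest there, and Arg2 and Sat1 are higher in p150DN embryos than in either control stage.

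Asl, which releases arginine from the product of Ass1 (chromosome 5, 130011258 to 130024381), stayed low. It was at 1.45, 2.52 and 4.07 FPKM in p150DN, 4.30 and 6.09 FPKM in blastocyst and 1.66, 1.19 and 2.52 FPKM in EGFP 8-cell libraries, on 44 to 250 fragments. The p150DN and EGFP 8-cell libraries overlapped. Asl rose in blastocysts relative to EGFP 8-cell embryos, to 5.20 ± 1.27 against 1.79 ± 0.675 FPKM (SD, n = 2 and 3; log2 fold change 1.16 ± 0.25, limma adjusted p = 0.00519), though without blastocyst replicate 2 the adjusted p was 0.0667. Leaving out 1 blastocyst library leaves that group with 1 sample, which is then assumed to vary like the 8-cell libraries, so a call lost in this way may only reflect the smaller group. The ratio of Ass1 to Asl was 15.0 to 42.4 in p150DN, 25.7 and 35.0 in blastocyst and 1.10 to 1.98 in EGFP 8-cell libraries.

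Slc7a1, the cationic amino acid transporter CAT1 that carries arginine into cells (chromosome 5, 148327410 to 148399904), was at 1.65, 1.57 and 2.36 FPKM in p150DN, 2.85 and 2.06 FPKM in blastocyst and 0.206, 0.328 and 0.279 FPKM in EGFP 8-cell libraries. Every EGFP 8-cell library lay below every other library, on as few as 31 fragments, and the gene passed the filter on low values only through the higher group in both comparisons with EGFP 8-cell embryos. At the 8-cell stage p150DN embryos averaged 1.86 ± 0.433 FPKM, against 0.271 ± 0.0615 FPKM for EGFP (SD, n = 3 each), a ratio of 6.87. Slc7a1 rose in blastocysts relative to EGFP 8-cell embryos (2.45 ± 0.558 FPKM, SD, n = 2, a ratio of 9.06; log2 fold change 1.43 ± 0.17, limma adjusted p = 0.000382, and 0.00174 with no filter on low values). p150DN 8-cell embryos and blastocysts overlapped (-0.27 ± 0.24, adjusted p = 0.42).

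Arg2, the mitochondrial arginase, was higher in p150DN embryos than in both control stages, as was Sat1. It was at 4.26, 8.73 and 11.7 FPKM in p150DN, 3.06 and 1.76 FPKM in blastocyst and 2.81, 2.48 and 2.12 FPKM in EGFP 8-cell libraries. Each p150DN library lay above each control library, and the p150DN libraries spread widely, with replicate 1 nearest to the controls. Against blastocysts Arg2 was higher by 1.37 ± 0.38 (limma adjusted p = 0.0379). That call was lost without any 1 of p150DN replicates 2 and 3 and blastocyst replicates 1 and 2 (adjusted p of 0.0974, 0.0846, 0.122 and 0.245). Between blastocysts and EGFP 8-cell embryos the difference was -0.05 ± 0.22 (adjusted p = 0.859), and its sign changed with the library left out. Arg2 (chromosome 12, 79130788 to 79156301) overlaps Vti1b, and no source used here states the strand setting of the counting, so its 56 to 274 fragments may include those of its neighbour.

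Oat (chromosome 7, 132557475 to 132576398) was at 14, 13.9 and 9.07 FPKM in p150DN, 19.2 and 19.6 FPKM in blastocyst and 6.57, 10.2 and 8.13 FPKM in EGFP 8-cell libraries. The 8-cell groups overlapped, because p150DN replicate 3 lay below the highest EGFP library. Oat rose in blastocysts relative to EGFP 8-cell embryos, to 19.4 ± 0.255 against 8.29 ± 1.80 FPKM (SD, n = 2 and 3; 1.15 ± 0.19, limma adjusted p = 0.00143). All p150DN libraries lay below both blastocyst libraries, a difference that did not pass (-0.64, adjusted p = 0.0642).

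Odc1, the first enzyme of polyamine synthesis (chromosome 12, 17544808 to 17551502), had the highest level of the set in every group. It was at 606, 572 and 624 FPKM in p150DN, 536 and 439 FPKM in blastocyst and 875, 839 and 918 FPKM in EGFP 8-cell libraries. Every p150DN and blastocyst library lay below every EGFP 8-cell library. At the 8-cell stage p150DN embryos averaged 600.2 ± 26.4 FPKM, against 877 ± 39.8 FPKM for EGFP (SD, n = 3 each), a log2 fold change of -0.55 ± 0.11. Odc1 fell in blastocysts relative to EGFP 8-cell embryos, to 487 ± 68.9 FPKM (SD, n = 2; -0.85 ± 0.12, limma adjusted p = 0.000679). p150DN embryos and blastocysts differed by 0.31, which did not pass (adjusted p = 0.133, but 0.048 after quantile normalization).

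The aminopropyl transferases of the next steps took opposite directions between the control stages. Srm (chromosome 4, 148591513 to 148594619) was at 59.5, 52.4 and 53.6 FPKM in p150DN, 77.4 and 86.2 FPKM in blastocyst and 38.9, 52.9 and 63.6 FPKM in EGFP 8-cell libraries. Sms (chromosome X, 157443851 to 157492287) was at 31.7, 46.9 and 40.0 FPKM in p150DN, 23.9 and 23.6 FPKM in blastocyst and 49.2, 46.8 and 49.5 FPKM in EGFP 8-cell libraries. For both genes the p150DN libraries overlapped the EGFP 8-cell libraries, and neither overlapped between blastocysts and any 8-cell group.

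Sms fell in blastocysts relative to EGFP 8-cell embryos (23.7 ± 0.202 against 48.5 ± 1.46 FPKM, SD, n = 2 and 3; 0.489 times the level, limma adjusted p = 0.000215). Srm rose (81.8 ± 6.25 against 51.8 ± 12.4 FPKM; 0.67 ± 0.20, adjusted p = 0.02), a call that was lost without blastocyst replicate 1 or 2 (adjusted p of 0.0899 and 0.151) and after median-of-ratios scaling (0.0731). The ratio of Srm to Sms was 1.44 ± 0.391 in p150DN (SD, n = 3), 3.45 ± 0.293 in blastocyst (n = 2) and 1.07 ± 0.252 in EGFP 8-cell embryos (n = 3). Against blastocysts, p150DN embryos were lower for Srm (-0.56 ± 0.14, limma adjusted p = 0.0262) and higher for Sms (0.70 ± 0.19, adjusted p = 0.0346). The call held in 10 of 16 alternatives for Srm and in 9 of 16 for Sms, where some alternatives left 1 library in a group.

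Sat1, which acetylates spermidine and spermine (chromosome X, 155213126 to 155216449), was at 418, 454 and 497 FPKM in p150DN, 208 and 198 FPKM in blastocyst and 339, 242 and 339 FPKM in EGFP 8-cell libraries. The 3 groups did not overlap. The p150DN mean of 456 ± 40.0 FPKM was 1.49 times the EGFP 8-cell mean of 307 ± 56.0 FPKM (SD, n = 3 each). Sat1 fell in blastocysts relative to EGFP 8-cell embryos, to 203 ± 7.26 FPKM (SD, n = 2; -0.58 ± 0.16, limma adjusted p = 0.0165), a call lost without blastocyst replicate 1 or 2 or EGFP 8-cell replicate 1 (adjusted p of 0.0918, 0.124 and 0.0579). Against blastocysts it was higher in p150DN embryos by 1.16 ± 0.13 (adjusted p = 0.00357), and without blastocyst replicate 1 or 2 the adjusted p was 0.0585 or 0.0659. The ratio of Sat1 to Odc1 was 0.760 ± 0.0614 in p150DN, 0.419 ± 0.0444 in blastocyst and 0.349 ± 0.0527 in EGFP 8-cell embryos.

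Over the set, 5 rows were higher in every p150DN library than in every EGFP 8-cell library (Ass1, Gm5424, Arg2, Slc7a1 and Sat1) and 1 was lower (Odc1). The groups did not overlap for 49.8% of all genes. Since the set was chosen from this comparison, nothing is read from this count. Of the 11730 genes tested, 34.3% were called by a Benjamini-Hochberg adjusted p below 0.05 in limma, 24.6% higher and 9.68% lower. The median log2 fold change over all genes was 0.19 as deposited. With median-of-ratios scaling the median of all genes was -0.06, and with quantile normalization it was -0.03. The share of called genes that were higher was 71.8% as deposited and 43.9% and 49.3% with these scalings. Relative to that median, Ass1 stood at 3.95, Arg2 at 1.13, Slc7a1 at 0.97, Sat1 at 0.39, Sms at -0.50 and Odc1 at -0.74. Asl stood at 0.17 and Srm at -0.08 relative to that median, at 0.22 and -0.11 with median-of-ratios scaling, and at 0.0038 and 0.19 with quantile normalization, so no direction is given for either.

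**Figure D2:**
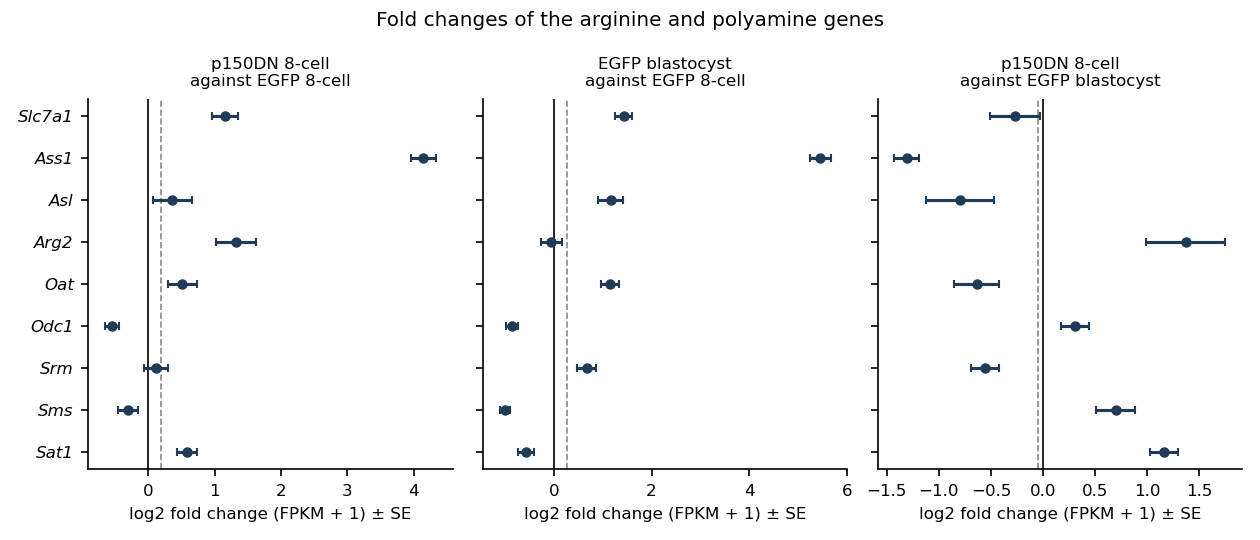
Log2 fold change (FPKM + 1) with its SE for the 9 measurements in the 3 comparisons, 1 panel each. The solid line marks 0 and the dashed line the median of all genes tested. Ass1 lies at 4.15 and 5.45 in the comparisons with EGFP 8-cell embryos, and Arg2 (1.32 and -0.05) and Sat1 (0.58 and -0.58) differ between those panels.

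Between the control stages, which asks how the genes differ from the 8-cell embryo to the blastocyst, 7 of the 8 members tested passed. One of the 7 was Slc7a1, which was tested only through the blastocyst libraries. Asl, Slc7a1, Oat and Srm rose in blastocysts, Odc1, Sat1 and Sms fell, and Arg2 did not pass. The libraries did not overlap for these 7 genes, and for 79.6% of all genes. Of 12199 genes tested, 67.5% were called, 42.6% higher and 24.9% lower, so passing was common among all genes. Without blastocyst replicate 2, 4 of the 8 members passed. The members' median was 0.31 and that of all genes 0.28, which became 0.09 with median-of-ratios scaling and 0.03 with quantile normalization. The share of called genes that were higher was 63.1% as deposited and 53.3% and 51% after these scalings, and the 8 members kept their signs under both. Relative to the median of all genes, Slc7a1 stood at 1.16, Asl at 0.88, Oat at 0.87, Srm at 0.40, Sat1 at -0.86, Odc1 at -1.13 and Sms at -1.28.

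p150DN 8-cell embryos differ from EGFP blastocysts in stage and in treatment, which cannot be told apart. Of the 8 members tested, Arg2, Sat1 and Sms were higher in p150DN embryos and Srm was lower, and the other 4 did not pass. Of 12648 genes, 26.1% were called, 11.9% higher and 14.2% lower. The groups did not overlap for 7 of the 8 members, all but Slc7a1, and for 61% of all genes. Without blastocyst replicate 1 or 2, limma called 0 of the 8 members (5 and 3 at an unadjusted p below 0.05) and 116 and 79 of all genes, against 3301 with both. The blastocyst group then had 1 sample. The 3 comparisons share libraries with each other, so their values are not independent.

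Ordered by level per length, Odc1 and then Sat1 were highest in all 3 groups, and neighbouring genes in this order did not overlap at these ranks. Ass1 came next in p150DN embryos and in blastocysts, above Srm, Sms and Oat, and lay below these 3 genes in EGFP 8-cell embryos. There its libraries overlapped those of Arg2, and Arg2 overlapped Asl. Srm and Sms overlapped in EGFP 8-cell embryos and were apart in the other groups. Slc7a1 was lowest in EGFP 8-cell embryos. In p150DN embryos it was lowest by its mean but overlapped Asl, and in blastocysts it overlapped Arg2, which was lowest there by its mean (2.41 ± 0.922 FPKM, SD, n = 2).

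The genes whose pattern over the 8 libraries was most like that of Ass1 were Sdc4, Anxa2, Scd2, Hspb8 and Lrp2, leaving out Gm5424, which holds the same fragments. Likeness was the root mean square difference in log2(FPKM + 1) after each gene was centred on its own mean, over 8172 genes, where the median gene stood at 2.22. Sdc4, a cell surface proteoglycan, stood at 0.337, with means of 110 FPKM in p150DN, 198 in blastocyst and 3.63 in EGFP 8-cell embryos. Anxa2, a membrane-binding annexin, stood at 0.354 (48.7, 103 and 1.45 FPKM in the same groups). Scd2, a fatty acid desaturase, stood at 0.398 (40.9, 113 and 1.12 FPKM). Hspb8, a small heat shock protein, stood at 0.437 and Lrp2, the endocytic receptor megalin, at 0.451.

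**Figure D3:**
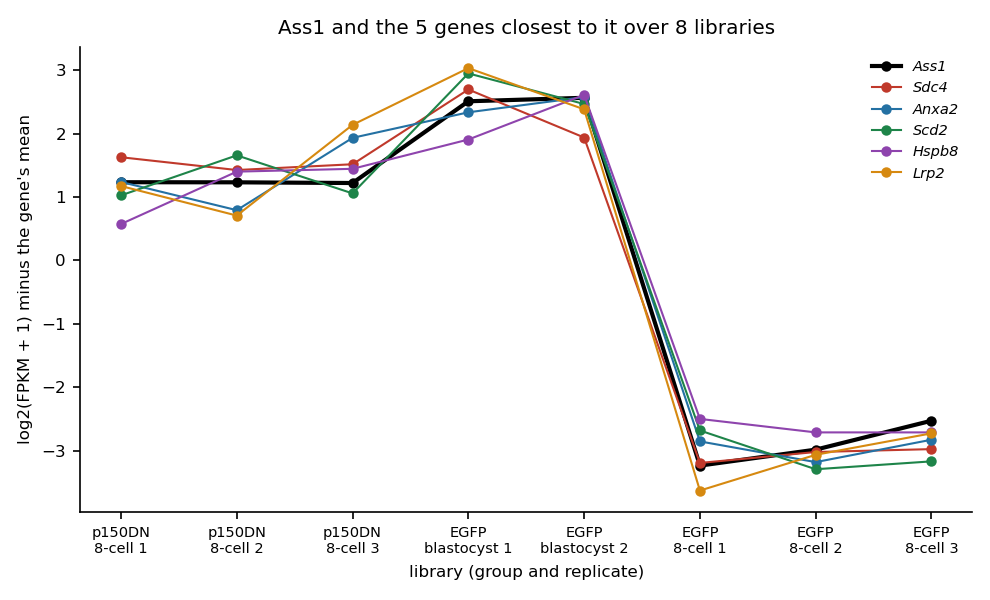
Log2(FPKM + 1) minus each gene's own mean, for Ass1 (black) and the 5 genes closest to it, in each of the 8 libraries. All 6 genes are lowest in the EGFP 8-cell libraries and highest in the blastocyst libraries on average, with p150DN libraries between them, and Ass1 varies least among the p150DN replicates (1.22 to 1.23).

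Beyond the members, 44 further genes of the same pathways were examined, of which 30 were tested between p150DN and EGFP 8-cell embryos. In p150DN embryos 6 rose, 1 fell and 23 did not pass, where 34.3% of all genes were called (24.6% higher, 9.68% lower). Their median was 0.17, against 0.19 over all genes. After median-of-ratios scaling 4 were higher and 8 lower, and after quantile normalization 5 and 2. Of all 11730 genes tested, 1753 were higher and 2239 lower with the first scaling, and 1779 and 1833 with the second. The 8 lower pathway genes include Atp13a3 (limma adjusted p = 0.0128) and Amd1 and Amd2 (0.00848 for both), which hold equal fragments and are 1 measurement. Leaving out p150DN replicates 2 and 3, which detected the most genes, left 1 p150DN library, so no count is given for that fit. Among the carriers, Slc3a2, the heavy chain that partners several amino acid transporters, was at 56.5, 63.2 and 50.9 FPKM in p150DN, against 22.5, 30.7 and 19.5 FPKM in EGFP 8-cell libraries (1.22 ± 0.18, limma adjusted p = 0.00166). The other 4 tested carriers did not pass, but the mitochondrial ornithine carrier Slc25a15 was lower under both scalings (adjusted p of 0.0333 and 0.0219). Slc25a13, the mitochondrial carrier citrin that supplies the aspartate used by Ass1, was at 7.50, 5.96 and 12.9 FPKM in p150DN, against 0.969, 1.03 and 1.59 FPKM in EGFP 8-cell libraries (2.10 ± 0.27, adjusted p = 0.000972). The groups did not overlap for either gene.

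Of 3 tested genes that link ornithine, proline and glutamate, 2 rose in p150DN embryos. Aldh4a1, which oxidises a proline breakdown product to glutamate, was at 3.8, 7.88 and 6.44 FPKM in p150DN, against 2.02, 1.25 and 1.45 FPKM in EGFP 8-cell libraries (1.42 ± 0.26, limma adjusted p = 0.00407, but 0.0622 without p150DN replicates 2 and 3). Pycrl, a reductase gene of proline synthesis, was at 5.37, 5.89 and 5.17 FPKM in p150DN, against 2.63, 4.13 and 2.94 FPKM in EGFP 8-cell libraries. The groups did not overlap, but the call was near the threshold (0.63 ± 0.20, limma adjusted p = 0.0356) and was lost after median-of-ratios scaling (0.145), after quantile normalization (0.35) and without any 1 library other than EGFP 8-cell replicate 2 (0.0578 to 0.136). The 6 other tested genes of arginine use, 3 antizyme and antizyme inhibitor genes and 4 genes of eIF5A and its hypusine modification did not pass. Among them, Oaz1, Azin1 and Dhps were lower after median-of-ratios scaling (adjusted p of 0.0408, 0.0462 and 0.0388) and Eif5a was higher after quantile normalization (0.045).

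Sat2, a relative of Sat1, was the gene that fell in p150DN embryos. It was at 1.16, 1.28 and 3.11 FPKM in p150DN, against 6.46, 7.68 and 9.51 FPKM in EGFP 8-cell libraries (-1.69 ± 0.28, limma adjusted p = 0.00257), on 33 to 257 fragments. It was lower still in blastocysts, at 0.629 and 0.509 FPKM. The ratio of Sat1 to Sat2 was 160 to 360 in p150DN, 331 and 388 in blastocyst and 31.5 to 52.5 in EGFP 8-cell libraries. Outside the naming rule, chosen after their values were seen, Smox, which oxidises spermine, and Mtap, which recycles the by-product of Srm and Sms, complete the 6 that rose. Smox (1.29, limma adjusted p = 0.00442) was below 1 FPKM in every EGFP 8-cell library and so was tested only through the p150DN libraries; with no filter its adjusted p was 0.0205. Mtap (0.71, adjusted p = 0.0229) lost its call with no filter (0.0628), after median-of-ratios scaling (0.108), after quantile normalization (0.309) and without any 1 library other than p150DN replicate 2 (0.0506 to 0.0724).

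**Figure D4:**
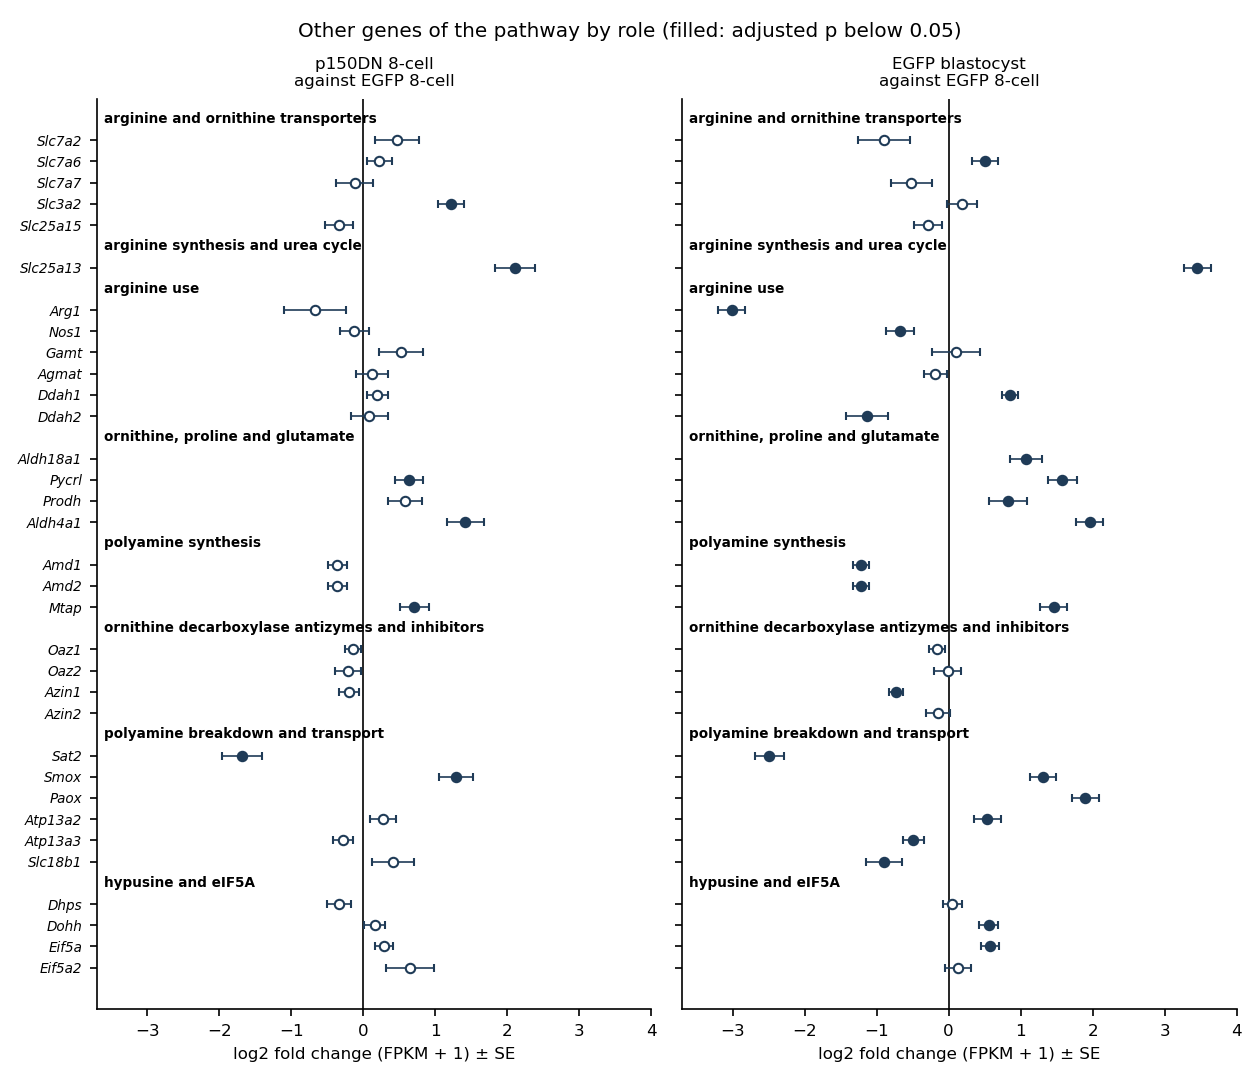
Log2 fold change (FPKM + 1) with its SE of the other pathway genes by role, for p150DN against EGFP 8-cell embryos (left) and EGFP blastocysts against EGFP 8-cell embryos (right). Filled points have an adjusted p below 0.05 (7 on the left, 22 on the right). The genes linking ornithine, proline and glutamate lie right of 0 in both panels with the values as deposited.

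Between the control stages 33 of these genes were tested. In blastocysts 13 rose, 9 fell and 11 did not pass, where 67.5% of all genes were called (42.6% higher, 24.9% lower). Of these calls, 4 were of genes tested only through the higher group (Aldh18a1, Sat2, Smox and Paox), and all 4 passed with no filter as well. Without blastocyst replicate 2, 14 passed in all. The split was 8 higher and 11 lower after median-of-ratios scaling and 10 and 13 after quantile normalization. Of all 12199 genes tested, 4289 were higher and 3751 lower with the first scaling, and 4027 and 3866 with the second. The median of the 33 genes was 0.05, against 0.28 over all genes. Amd1 and Amd2 gave equal fragments in 8 of 8 libraries and are 1 measurement counted as 2 of these genes. All 4 tested genes of the ornithine, proline and glutamate list rose, as did 42.6% of all genes, led by Aldh4a1 (1.96 ± 0.19, limma adjusted p = 0.000145) and Pycrl, at 11.5 ± 1.13 FPKM in blastocysts against 3.23 ± 0.792 FPKM in EGFP 8-cell embryos (SD, n = 2 and 3; 1.58 ± 0.20, adjusted p = 0.000475). Prodh, of that list, did not pass after median-of-ratios scaling (0.0603) or quantile normalization (0.202). Slc25a13 rose to 22.9 ± 2.21 against 1.20 ± 0.343 FPKM (3.45 ± 0.19, adjusted p = 2.62e-05), the largest difference among the 33.

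Arg1, the cytosolic arginase, fell in blastocysts relative to EGFP 8-cell embryos. It was at 13.7, 58.7 and 35.9 FPKM in p150DN, 5.42 and 5.15 FPKM in blastocyst and 47.2, 62.6 and 41.0 FPKM in EGFP 8-cell libraries (blastocyst against EGFP 8-cell -3.01 ± 0.19, limma adjusted p = 3.6e-05). The p150DN libraries overlapped the EGFP 8-cell libraries and spread over a wider range. The ratio of Arg1 to Arg2 was 3.08 to 6.72 in p150DN, 1.77 and 2.93 in blastocyst and 16.8 to 25.3 in EGFP 8-cell libraries. Ddah2, which breaks down methylated arginine, also fell in blastocysts (3.28 ± 1.15 against 8.48 ± 2.59 FPKM; -1.13, adjusted p = 0.0105, but 0.122 without blastocyst replicate 2).

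In polyamine synthesis and its control, the decarboxylase row Amd1, whose product feeds Srm and Sms, fell to 23.2 ± 0.867 FPKM in blastocysts against 55.3 ± 2.26 FPKM in EGFP 8-cell embryos (SD, n = 2 and 3; -1.22 ± 0.11, limma adjusted p = 0.000105). Azin1, which protects Odc1 from antizyme, fell to 68.4 ± 3.76 against 114 ± 3.96 FPKM (-0.73 ± 0.10, adjusted p = 0.000635). Mtap rose to 8.41 ± 1.27 against 2.43 ± 0.433 FPKM (1.46 ± 0.19, adjusted p = 0.000543). Odc1, Amd1, Azin1 and Sms were lower in blastocysts, while Srm and Mtap were higher.

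Among breakdown and transport genes, Sat2, below 1 FPKM in both blastocyst libraries, fell in blastocysts (-2.49 ± 0.20, limma adjusted p = 7.5e-05, and 0.000782 with no filter), as did Atp13a3, a polyamine transporter (118 ± 24.3 against 165 ± 11.5 FPKM; -0.49, adjusted p = 0.0192, but 0.131 without blastocyst replicate 2). Eif5a, which carries the hypusine made from spermidine, was at 717 and 731 FPKM in blastocysts, against 497, 425 and 541 FPKM in EGFP 8-cell libraries (0.58 ± 0.12, adjusted p = 0.00502). Dohh, which completes hypusine, rose by 0.56 (adjusted p = 0.00915). Both of these calls were lost after median-of-ratios scaling (adjusted p of 0.0608 and 0.0726). The arginine carrier Slc7a6 was near the threshold (0.50, adjusted p = 0.0433) and did not pass under either scaling (0.197 and 0.142).

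Of 33 genes tested between p150DN 8-cell embryos and blastocysts, 7 were higher in p150DN embryos and 5 lower, where 26.1% of all genes were called (11.9% higher, 14.2% lower), and limma called 0 without blastocyst replicate 1 or 2 (12 and 11 at an unadjusted p below 0.05). Slc3a2 was higher (56.8 ± 6.15 against 27.3 ± 4.59 FPKM, SD, n = 3 and 2; 1.04 ± 0.17, limma adjusted p = 0.00842), as were Arg1 (2.34 ± 0.51, adjusted p = 0.0192), Ddah2 (1.21, adjusted p = 0.0209) and Amd1 (0.85, adjusted p = 0.0122). Amd2, the same measurement as Amd1, is also counted among the 7. Paox, counted among the 5, was below 1 FPKM in every p150DN library and so was tested only through the blastocyst libraries. With no filter on low values its limma adjusted p was 0.0234. Slc25a13 was lower in p150DN embryos (8.79 ± 3.65 against 22.9 ± 2.21 FPKM; -1.35 ± 0.29, adjusted p = 0.0182), as was Pycrl (-0.95, adjusted p = 0.0116). With no filter the calls of Arg1, Ddah2 and Slc25a13 were lost (limma adjusted p of 0.0593, 0.0604 and 0.0538). Arg1 also did not pass without p150DN replicate 3 (0.0528).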

How the data were processed

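Embryo lysates went into stranded SMART-seq libraries of total RNA, per the labels' protocols. The authors deposited FPKM values, 1 column per library over 25220 gene symbols, per the file headers. The submitters' processing notes name Trim Galore, HISAT2, SAMtools, Bowtie2 and featureCounts and the build mm10. For annotation and strand setting, the sources used here say nothing. FPKM fixes each library's total, so differences in RNA content per embryo are not visible. Library totals were inferred from the values of short genes taken to hold 1 fragment. For each gene a length was then sought that made its fragments whole in every library above 0 (within 0.02 fragments). Such a length was found for 23314 of 23316 genes. Where few libraries are above 0 it is easy to find, so this is no check against annotated lengths. Columns named for 8-cell embryos without a treatment were taken as EGFP, the only such RNA-seq group in the labels. Coordinates come from RefSeq on GRCm38.p6, which matched 24920 symbols.

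Two-sided tests on log2(FPKM + 1) used limma 3.58.1 under R 4.3.3 (lmFit and eBayes with a trend), tested on simulated data. A gene was tested if 3 libraries (p150DN against EGFP at the 8-cell stage) or 2 libraries (comparisons with blastocysts) reached 1 FPKM, and p-values were adjusted over all tested genes by Benjamini-Hochberg. Other pathway genes were named if called, with non-overlapping groups and a mean of at least 5 FPKM in the higher group, up to 2 per role with the largest change in each comparison, and genes like Ass1 by rank. 1 further gene of the lists is not reported here and is not in the counts of other pathway genes. The members, lists and rules were chosen with earlier results of these data known. Other pseudocounts, filters, scalings, fits and left-out libraries were tried. SDs and SEs measure the spread between libraries, and fragments are not independent molecules.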

Additional observations from a re-analysis of the deposited data

How the results depend on the processing

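The number of members past the threshold stayed within 1.5 times in 14 of 15 alternatives for blastocysts against EGFP 8-cell embryos and in 9 of 16 for p150DN embryos against blastocysts. In the comparison that chose the set, p150DN against EGFP 8-cell embryos, members are not counted. Other pathway genes there numbered 4 at a filter of 5 FPKM and 12 (4 higher, 8 lower) after median-of-ratios scaling, against 7. With that scaling 1753 of all 11730 genes tested were higher and 2239 lower. For p150DN embryos against blastocysts the members numbered 2 with no filter, 2 with no trend and 1 without both p150DN replicates 2 and 3, against 4, and the other genes 6 with no filter and 3 without those replicates, against 12. Leaving out 1 library at a time gave 5 to 9 other genes for p150DN against EGFP 8-cell embryos. Between the control stages it gave 4 to 7 members and 14 to 22 other genes. For p150DN embryos against blastocysts it gave 0 to 4 members and 0 to 14 other genes. The lowest counts in both comparisons with blastocysts came from fits with 1 blastocyst library, so they may only reflect the smaller group. The log2 fold change of Arg2 between the control stages (-0.05) was 0.23 without blastocyst replicate 2 and 0.02 without EGFP 8-cell replicate 1, over a range of -0.33 to 0.23 with 1 library left out. With the replicate number as a block, 7 members passed between the control stages and 4 for p150DN embryos against blastocysts. Other genes numbered 7 for p150DN against EGFP 8-cell embryos, 20 between the control stages and 11 for p150DN embryos against blastocysts. The 8-cell replicate 3 has no partner in comparisons with blastocysts and adds nothing there. In the last comparison Asl passed under the block (adjusted p = 0.0171) and Srm did not (0.0897). The deviations of same-numbered 8-cell libraries correlated weakly (r of 0.0346 to 0.0986). p150DN replicates 2 and 3 each went best with the EGFP 8-cell library of their number. p150DN replicate 1 went best with EGFP replicate 3 (0.0776, against 0.0616 with its own number). With 2 blastocyst libraries the deviations mirror each other, so r there (-0.0651 to -0.0243) cannot decide on pairing. Whether the numbers mark pairs cannot be told from these values. limma voom on the recovered fragments, added after seeing the data, kept these counts within 1.5 times, though Arg2 did not pass against blastocysts (adjusted p = 0.0524). Ass1 and Gm5424 hold the same fragments, so summing them (4.15, 5.46 and -1.31) could not test the result. Depth limits Slc7a1, Asl, Arg2 and Sat2, and Ass1 and Slc25a13 in EGFP 8-cell embryos, at under 100 fragments in some libraries. The cause of these shifts was not tested.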
